A study of Mus musculus with 4 samples.

Results

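The nuclear genes for the subunits of the 5 oxidative phosphorylation (OXPHOS) complexes were followed across the cell types of mouse liver and between genotypes. Members were taken by symbol: every gene beginning with Ndufa, Ndufb, Ndufc, Ndufs or Ndufv, Uqcr, Cox4 to Cox8 or Atp5, together with Sdha to Sdhd, without rows ending in -ps and without the Ndufaf assembly factors. One gene that the annotation lists as a processed pseudogene, Ndufb4c, has no such ending and stayed in complex I, with 6.50 UMIs in all nuclei. This gave 87 of the 54464 genes in the matrix, of which 40 were assigned by symbol to complex I, 4 to complex II, 8 to complex III, 18 to complex IV and 17 to complex V. Ndufa4 and its paralog Ndufa4l2 were placed in complex I by symbol alone, and an alternative counted Ndufa4 in complex IV. Single-nucleus RNA sequencing, which counts the 3′ end of each RNA, had been performed on livers of 3 wild-type (WT) and 3 hepatocyte-specific Nampt knockout (HNKO) mice. All 6 mice were on the C57BL6/BomTac background, carried the conditional Nampt allele (Nampt cKO) and received a purified control diet, and the HNKO mice carried Alb-Cre in addition. Alb-Cre is driven by the albumin promoter, so recombination is restricted to cells that have used this promoter and the other liver cells keep their Nampt. Per the study's methods the mice were females aged 8 to 12 weeks at the start and fed this diet for 6 weeks. The cohort was split between plain drinking water and water with nicotinamide riboside, an NAD+ precursor, during this time, and the labels do not say which water these mice received. Mice are numbered within each genotype by the name of their hashtag, and the numbers carry no pairing.

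The deposited matrix held 5193 nuclei with no repeated barcode, 629 to 778 nuclei per WT mouse and 950 to 1063 per HNKO mouse, and 3766532 to 7763269 unique molecular identifiers (UMIs, each standing for 1 captured RNA molecule) per mouse. Of these UMIs, 30041001 came from hepatocytes, 946786 from endothelial cells and 692238 from stellate cells, and the precision for each cell type follows these totals. Levels are given in CPM, the UMIs of a gene scaled to the UMI total of the nuclei of one type in one mouse. The labels of endothelial, stellate and Kupffer cells held up against the markers given here: pooled over mice, Stab2 was at 5520 CPM in endothelial cells and 23.7 in hepatocytes, Reln at 5783 in stellate cells and 90.3 in hepatocytes, and Clec4f at 928 in Kupffer cells and 1.86 in hepatocytes. In cholangiocytes Spp1 was at 1196 CPM (17.3 in hepatocytes), but Krt19 and Krt7 rested on 3 and 7 UMIs. Alb was at 5122 CPM in hepatocytes but also at 1412 in endothelial cells, 931 in stellate cells and 2137 in CD45+ cells, which are the immune cells other than Kupffer cells. Cps1, another hepatocyte marker, was at 13684 CPM in hepatocytes, 3839 in endothelial cells, 1289 in stellate cells and 4779 in CD45+ cells. The part of this hepatocyte RNA in the values of the other types was not tested. Nampt, the targeted gene, did not separate the genotypes in hepatocytes. Its hepatocyte level was 84.8, 105 and 96.9 CPM in WT mice 1, 2 and 3 and 84.1, 148 and 90.8 CPM in the mice labelled HNKO 1, 2 and 3. In 2 cell types without Alb-Cre activity Nampt was higher in HNKO mice without overlap, at 33.6, 11.0 and 27.7 CPM in WT and 97.6, 86.7 and 51.2 CPM in HNKO endothelial cells, and at 24.9 ± 10.6 CPM in WT and 81.1 ± 14.7 CPM in HNKO stellate cells (SD, n = 3), from 62 and 43 UMIs in all. The genotypes overlapped in CD45+ cells, at 40.6, 117 and 66.0 CPM in WT and 179, 186 and 110 CPM in HNKO mice. They also overlapped in Kupffer cells, with means of 227 CPM in WT and 216 CPM in HNKO mice. The counted UMIs may lie outside the deleted part of Nampt, so this does not check the labels, and HNKO below stands for the mice labelled HNKO.

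OXPHOS couples the oxidation of NADH and succinate to the making of ATP in the inner mitochondrial membrane. Complex I (NADH dehydrogenase) takes electrons from NADH and complex II (succinate dehydrogenase) from succinate, complex III (cytochrome bc1) passes them to cytochrome c, complex IV (cytochrome c oxidase) passes them to oxygen, and complex V (ATP synthase) uses the proton gradient so formed. All complexes except complex II also contain subunits encoded by mitochondrial DNA, so the nuclear and the mitochondrial genome both contribute. Nampt makes nicotinamide mononucleotide, the precursor of NAD+, which is the electron carrier that feeds complex I. Hepatocytes are rich in mitochondria, and those near the portal vein, where oxygen is highest, are known for more oxidative metabolism than those around the central vein.

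Promoters of OXPHOS genes are textbook targets of the factors NRF1, GABP and YY1, and the deposited series shows only their output, so the sequences are given here as the context of the levels that follow. Of the 87 members, 70 matched a promoter window by symbol (RefSeq, GRCm38.p6, 250 bases before to 50 bases after the start). The NRF1 core GCGCATGC was present on either strand in 10 of 70 members (14.3%) and in 3.93% of the 17491 protein-coding genes with a window. The GABP core CCGGAAG was present in 17 members (24.3%) against 12.9% of all genes, and the YY1 core AAGATGGCG in 7 members (10.0%) against 2.14%. The last 3 letters of the GABP core are the first 3 of the YY1 core, and the NRF1 core overlaps its own reverse complement. These matches describe letters and not binding. Of the 7 members with the YY1 letters, 6 had them after the start, and 5 of the 7 encode complex I subunits (Ndufa9, Ndufc1, Ndufs4, Ndufs6 and Ndufs7). Ndufs4, the member with the highest hepatocyte level, had them from position 36 after the start. Below are the 180 bases before the start of 4 members, chosen because each shows the letters of one or more of these cores upstream; they are read 5′ to 3′ on the strand of the gene, with the matched letters in capitals. Positions are counted from the start, negative before it.
Sdhb (complex II, iron-sulfur subunit), chr4:140961091-140961270, plus strand, NRF1 letters on the opposite strand from -54: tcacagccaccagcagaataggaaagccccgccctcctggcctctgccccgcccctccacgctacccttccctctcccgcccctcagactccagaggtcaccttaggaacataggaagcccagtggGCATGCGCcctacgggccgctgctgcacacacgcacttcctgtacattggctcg
Sdhd (complex II, membrane anchor), chr9:50603850-50604029, minus strand, GABP letters on the opposite strand from -46: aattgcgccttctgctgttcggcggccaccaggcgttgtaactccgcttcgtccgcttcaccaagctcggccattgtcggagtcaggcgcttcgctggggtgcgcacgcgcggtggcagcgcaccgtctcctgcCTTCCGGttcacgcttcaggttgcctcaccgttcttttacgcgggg
Cox6a1 (complex IV, common isoform), chr5:115348959-115349138, minus strand, NRF1 letters on both strands from -162 and -160 and GABP letters on the opposite strand from -16: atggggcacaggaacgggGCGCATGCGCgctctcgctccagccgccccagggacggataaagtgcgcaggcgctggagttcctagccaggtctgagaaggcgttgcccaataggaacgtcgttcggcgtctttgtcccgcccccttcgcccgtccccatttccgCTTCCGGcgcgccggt
Atp5j (complex V, coupling factor 6), chr16:84834977-84835156, minus strand, YY1 letters from -88 and GABP letters from -61, the window with more matches of its 2 windows: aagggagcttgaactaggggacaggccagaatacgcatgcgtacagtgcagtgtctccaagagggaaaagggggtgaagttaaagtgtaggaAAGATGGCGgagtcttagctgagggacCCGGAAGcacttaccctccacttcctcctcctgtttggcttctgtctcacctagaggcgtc
Atp5j overlaps Gabpa, the gene of a GABP subunit, which lies on the opposite strand.

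In hepatocytes the 5 complexes kept nearly constant proportions. Complex I took 40.6% of all member UMIs (39.6 to 42.5% over the 6 mice), complex V 24.4% (22.8 to 25.8%), complex III 12.1% (11.6 to 12.5%), complex IV 11.9% (11.3 to 12.5%) and complex II 11.0% (10.4 to 12.1%). With 40 genes in complex I and 4 in complex II, the mean level per gene was thus not equal between complexes. Ndufs4, an accessory complex I subunit on chromosome 13 (GRCm38, 114287795 to 114388258, minus strand), alone reached 189, 150 and 182 CPM in WT mice and 186, 166 and 165 CPM in HNKO mice. These levels, the highest of all members, were similar in the 6 mice and the genotypes overlapped. Nuclear RNA contains introns, and longer genes tend to give more UMIs. Across 74 members with a position and enough UMIs, the level correlated with the gene span at Spearman's rho 0.422, against 0.433 across 10537 protein-coding genes, as a description across genes that are not independent replicates. Per kilobase of span, Ndufs4 (100 kb) was at 1.72 CPM/kb and rank 36, and the order was led by Cox7c (14.5 CPM/kb), a small complex IV subunit, Uqcrq (9.13 CPM/kb), a small complex III subunit, and Atp5k (8.73 CPM/kb), subunit e of complex V. The members were short genes, with a median span of 7.57 kb against 29.3 kb over those protein-coding genes.

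Hepatocyte totals of every complex overlapped between the genotypes. In CPM, complex I was at 576, 558 and 610 CPM in WT and 503, 595 and 755 CPM in HNKO mice. The lowest and the highest value were both in HNKO mice, HNKO1 and HNKO3. This order was the same for the other 4 complexes: complex V, for example, was at 336, 361 and 365 CPM in WT and 269, 366 and 478 CPM in HNKO mice. Complex II, which carries no mitochondrially encoded subunit, was at 152, 146 and 167 CPM in WT and at 124, 156 and 231 CPM in HNKO mice. With Ndufa4 counted in complex IV, complex I was at 557, 545 and 587 CPM in WT and 488, 578 and 736 CPM in HNKO mice. Complex IV was then at 182, 177 and 213 CPM in WT and 154, 199 and 235 CPM in HNKO mice, and both still overlapped. Over all members the total was 1395, 1401 and 1520 CPM in WT and 1183, 1469 and 1908 CPM in HNKO mice, a difference of the means of 5.64% of the WT mean. The direction of this difference rested on the scale. The CPM of HNKO3 was raised for most genes, since 64.7% of all tested genes lay above all 3 WT mice there. TMM scaling, which lines up the bulk of the genes between sums, gave HNKO3 a factor of 1.28 and the other mice 0.917 to 1.01. After it the total was 1507, 1446 and 1616 CPM in WT (1523 ± 85.9, SD, n = 3) and 1290, 1455 and 1491 CPM in HNKO mice (1412 ± 107, SD, n = 3), which is -7.29% of the WT mean. The genotypes still overlapped. By complex, the TMM-scaled difference was -6.38% for complex I, -4.70% for complex II, -8.91% for complex III, -8.79% for complex IV and -8.40% for complex V, again with overlap in each. Alb was lowest in HNKO3, at 5436, 5618 and 7281 CPM in WT and 4620, 5507 and 3004 CPM in HNKO mice, but did not follow the factors of the other mice. Cps1 was also lowest in HNKO3, at 4274 CPM against 12856 to 17742 CPM in the other mice. The part of either gene in the scaling was not tested.

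**Figure D1:**
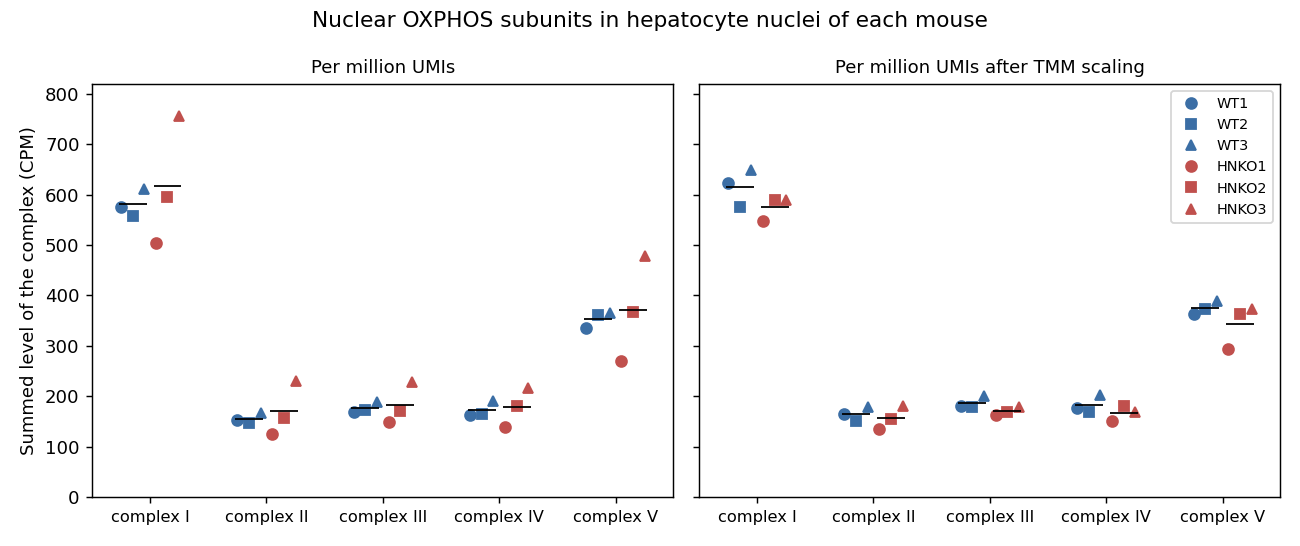
Summed hepatocyte level of the nuclear subunits of each complex in each mouse, before and after TMM scaling (CPM, 1 point per mouse, bars at the mean of each genotype). HNKO3 is the highest mouse of every complex before scaling, with 755 CPM for complex I, and lies near the WT mice after it, with 590 CPM.

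No member passed the test for a difference between genotypes in hepatocytes. Of the 87 members, 77 had enough counts to be tested, and 0 were called in edgeR's quasi-likelihood test, where 0% of all 11810 genes were called. At an unadjusted p under 0.05 there was 1 member, Cox5b, among 698 genes, and DESeq2 called 21 genes, none of them a member. The fitted log2 fold change (HNKO minus WT) lay below 0 for 55 members and above 0 for 22, with a median of -0.09 against 0.02 over all genes. By complex, 22 of 37 tested members lay below 0 in complex I, 2 of 4 in complex II, 7 of 8 in complex III, 9 of 11 in complex IV and 15 of 17 in complex V. The smallest adjusted p of any member was 0.82 (edgeR), and counts of direction over genes of one pathway are not independent of each other.

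Mouse by mouse, the shift was largest in HNKO1. On the TMM scale the median member lay at -0.26 (log2, to the WT mean) in HNKO1, -0.09 in HNKO2 and -0.04 in HNKO3, where the median of all genes was at -0.02, -0.01 and 0.02. In HNKO1, 46 of 77 members lay below all 3 WT mice (59.7%; 28.2% of all genes did) and 0 above them (29.2% of all genes). In HNKO2, 23 lay below (20.8% of all genes) and 5 above (22.4%). In HNKO3, 22 lay below (32.3% of all genes) and 21 above (36.8%). In HNKO1 members below WT were found in all complexes, from 5 of 11 members in complex IV to 3 of 4 in complex II and 11 of 17 in complex V. HNKO1 was also the mouse with the lowest share of spliced UMIs in hepatocytes, 19.4% against 21.1 to 22.6% in the other 5 mice, and the part of this in the result was not tested. In all 3 HNKO mice below all 3 WT mice were 12 of 77 members (15.6%; 5.17% of all genes), and 0 members were above (6.42% of all genes). Before TMM scaling no member separated the genotypes in either direction. In HNKO1, 48 members lay below WT on that scale and 0 above, while in HNKO3 1 lay below and 53 above.

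**Figure D2:**
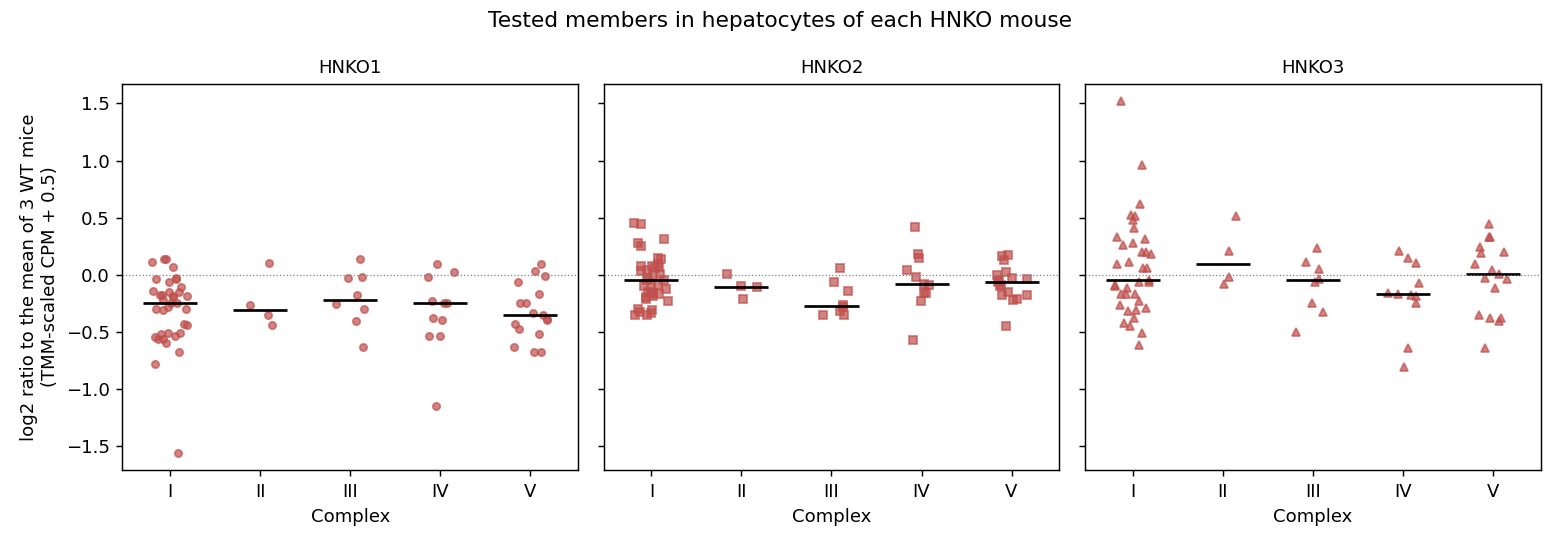
TMM-scaled hepatocyte level of each tested member relative to the WT mean (log2 of TMM-scaled CPM + 0.5) in each of the 3 HNKO mice, grouped by complex, with bars at the medians. The points of HNKO1 are shifted below 0 in every complex (median -0.26 over members), whereas those of HNKO2 and HNKO3 spread around their medians of -0.09 and -0.04.

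The members named next had the smallest unadjusted p or the highest level in their complex, and none passed the adjusted threshold. All values are TMM-scaled CPM in WT mice 1, 2 and 3 and then HNKO mice 1, 2 and 3. In complex I, Ndufa3, a small accessory subunit, was at 8.28, 12.5 and 10.0 in WT and 6.24, 7.93 and 7.40 in HNKO mice. All HNKO values lay below the WT values (log2 fold change -0.52 ± 0.25, SE, n = 3; adjusted p = 0.82, edgeR). Ndufb3, another accessory subunit, overlapped between genotypes (log2 fold change -0.44 ± 0.25, SE), as did Ndufs4, at 204, 155 and 193 in WT and 203, 164 and 129 in HNKO mice. Ndufa3 overlaps Tfpt on the opposite strand.

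In complex II, Sdha, the flavoprotein that oxidizes succinate, was at 74.2, 75.5 and 85.5 in WT and 57.8, 72.4 and 74.0 in HNKO mice. The groups did not overlap, but WT1 and HNKO3 lay close together. Sdhb was at 37.1, 33.2 and 40.4 in WT and 28.9, 37.2 and 52.7 in HNKO mice, with both the lowest and the highest value in HNKO mice. The log2 fold change was -0.20 ± 0.17 (SE) for Sdha, 0.10 ± 0.24 for Sdhb, 0.08 ± 0.20 for Sdhc and -0.17 ± 0.18 for Sdhd, the membrane anchors being the last 2.

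In complex III, Uqcrq, a small subunit, was at 27.9, 31.6 and 28.7 in WT and 23.8, 24.3 and 23.2 in HNKO mice. All 3 HNKO mice lay close together and below WT (log2 fold change -0.31 ± 0.16, SE, n = 3; adjusted p = 0.82, edgeR). Uqcrb, a ubiquinone-binding subunit, was at 12.3, 7.84 and 14.3 in WT and 7.23, 8.93 and 7.97 in HNKO mice and overlapped through WT2. Uqcrc2, a core protein and the highest member of complex III, was at a log2 fold change of -0.02 ± 0.17 (SE).

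In complex IV, Cox5b, a zinc-binding subunit on chromosome 1 (GRCm38, 36691449 to 36693681), was at 7.97, 9.41 and 10.7 in WT and 3.94, 7.93 and 5.13 in HNKO mice. Every HNKO value was below every WT value, although HNKO2 and WT1 lay close together (log2 fold change -0.73 ± 0.31, SE, n = 3; adjusted p = 0.82, edgeR). It rested on 233 UMIs over all nuclei of the series. Cox4i1, the common isoform of subunit 4, was at -0.38 ± 0.32 and Cox7c at -0.17 ± 0.18 (log2, SE), both with overlap.

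In complex V, Atp5j was at 24.5, 18.6 and 19.6 in WT and 12.8, 17.9 and 15.9 in HNKO mice. Atp5g3, a gene for the rotating c subunit, was at 22.3 ± 1.69 in WT and 17.9 ± 2.73 in HNKO mice (SD, n = 3). The groups did not overlap for either, at a log2 fold change of -0.42 ± 0.21 and -0.32 ± 0.19 (SE). Atp5c1, the gamma subunit that forms the central stalk, was at 52.1, 48.6 and 55.4 in WT and 37.1, 51.9 and 61.4 in HNKO mice and overlapped. Reads of Atp5j and Gabpa can be told apart only by strand, and the strand setting of the counting was not given in the sources used here.

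The other genes of the respiratory chain gave no call either. Among the partner genes, all 13 mitochondrially encoded subunits were tested and all 13 lay below 0, with a median log2 fold change of -0.38. ATP6 was at 224, 147 and 180 TMM-scaled CPM in WT and 151, 143 and 91.1 in HNKO mice, and COX1 at 867, 627 and 705 in WT and 640, 549 and 500 in HNKO mice. In sum, the mitochondrially encoded subunits were at 2737, 1977 and 2228 TMM-scaled CPM in WT and 2100, 1768 and 1432 in HNKO mice, with overlap. These 13 RNAs come from shared transcripts of mitochondrial DNA, lie outside the nucleus and vary together. Of 47 assembly factors, 39 were tested, 26 lay below 0 and 2 of complex IV assembly, Cox19 (0.46) and Coa6 (-1.09), had an unadjusted p under 0.05. Both cytochrome genes, Cyc1 and Cycs, lay above 0, and 4 of 5 genes of other electron entry points lay below.

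Tissue isoforms of complex IV subunits are known for muscle, lung and testis, and hepatocytes held almost none of them. Cox6a2, Cox6b2, Cox8b and Cox8c had 0 UMIs among 30041001 hepatocyte UMIs, where 3 UMIs would be 0.0999 CPM, the limit that a count of 0 allows. Cox4i2 had 5 hepatocyte UMIs and Cox7a1 had 2, while Cox7b2 had an estimated 2.56. Their common partners were at 176 UMIs for Cox4i1, 258 for Cox6a1, 516 for Cox6b1, 506 for Cox7a2, 613 for Cox7b and 465 for Cox8a, or 5.86 to 20.4 CPM. Cox7a2l, which is linked to supercomplex assembly, had 542 UMIs in hepatocytes and stood at 50.1 CPM in Kupffer cells, from 15 UMIs. Ndufa4l2, the paralog of Ndufa4 that is induced in hypoxia, had 28 hepatocyte UMIs, of which 17 were in HNKO3, against 532 for Ndufa4, and 0 in the other 5 cell types. Atpif1, the ATP synthase inhibitor, is not a member by its symbol and was at 4.38 CPM in hepatocytes. Ndufab1, the mitochondrial acyl carrier protein, was at 13.4 CPM, and its pseudogene row held 0.25 UMI in 1 nucleus.

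Over all members, hepatocytes gave a higher share of their UMIs to OXPHOS RNA than endothelial or stellate cells, and no member was called higher in either of the latter. The types come from the authors' clustering of the same nuclei on all genes, so these comparisons describe the clusters. In each of the 6 mice, the total over members was higher in hepatocytes than in endothelial cells, by 1.19 to 1.54 times (median 1.42), and than in stellate cells, by 1.05 to 1.95 times (median 1.73). The 2 ratios closest to 1 in the stellate comparison were in HNKO1 (1.05) and HNKO3 (1.26). For single complexes the ratio fell below 1 in some mice. Against endothelial cells this held for complex IV in WT2 (0.961). Against stellate cells it held for complex I in HNKO1 (0.916), complex II in WT1 (0.947) and complex IV in HNKO3 (0.961). The mitochondrially encoded subunits went the other way against endothelial cells, at 0.505 to 0.831 times. In edgeR with the mouse as a block, 26 of 76 tested members were called higher in hepatocytes than in endothelial cells, where 28.2% of all genes were, and 0 were called lower, where 17.2% were. Against stellate cells, 21 of 75 were called higher (25.7% of all genes) and 0 lower (15.8%). The share called higher was thus near that of all genes. The median log2 fold change was 0.91 for members and 0.30 for all genes against endothelial cells, and 0.95 and 0.34 against stellate cells. In the endothelial comparison the TMM factors were 0.78 to 1.06 for hepatocyte sums and 1.1 to 1.23 for endothelial sums. The part of the count filter in these medians was not tested, and neither they nor the 0 called lower can be set against all genes. Most members had few endothelial or stellate UMIs and passed the count filter through hepatocytes, which left little room for a call of lower. Within those types alone, only Ndufs4 had enough counts to be tested. With DESeq2 the calls were fewer, 11 against endothelial and 9 against stellate cells, and with no mouse block 11 against stellate cells. Over all genes, DESeq2 called 4872 against endothelial cells and 4634 against stellate cells in either direction, where edgeR called 5702 and 5211, so the calls among members fell by a larger factor. By complex, the calls against endothelial cells were 7 in complex I, 2 in II, 5 in III, 3 in IV and 9 in V, and against stellate cells 4, 2, 4, 3 and 8.

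Of these members, 13 were called in both comparisons: Ndufs1, Ndufs3 and Ndufs4 of complex I, Sdhb and Sdhc of complex II, Uqcrc1, Uqcrc2 and Uqcrq of complex III, Cox7b and Cox7c of complex IV, and Atp5b, Atp5c1 and Atp5md of complex V. Many calls rested on few UMIs in the other type, 10 or fewer for 14 of 26 and 12 of 21. Cox7b had 613 UMIs in hepatocytes (20.4 CPM) and 1 in endothelial cells (1.06 CPM), a pooled ratio of 19.3 with a 95% counting interval of 3.45 to 764. It was at 26.2, 21.1 and 30.8 TMM-scaled CPM in WT and 17.4, 24.6 and 25.2 in HNKO hepatocytes, and at 0 in the endothelial cells of every mouse but HNKO1 (2.85). Atp5g1 (pooled ratio 7.94), Atp5mpl (7.63) and Ndufb9 (5.77) also had 1 endothelial UMI each, and Uqcrc1 (3.22) and Atp5md (3.62) had 7 and 4. Atp5g1 encodes a c subunit like Atp5g3, and Uqcrc1 is the other core protein of complex III. Against stellate cells, Uqcrb and Atp5o had 0 stellate UMIs, so Uqcrb was at least 2.18-fold higher in hepatocytes against a floor of 3 UMIs over all stellate nuclei. The 95% counting interval of the pooled ratio reached down to 1.76 for Uqcrb and to 0.938 for Atp5o, which lies below 1. Atp5j, Atp5md, Uqcrc1 and Sdhb followed, with pooled ratios of 4.08, 3.53, 3.30 and 3.04. Sdhb was at 34.3, 32.1 and 38.0 CPM in WT and 26.6, 37.6 and 67.2 CPM in HNKO hepatocytes, at 0 in the stellate cells of all 3 WT mice and at 28.9, 6.85 and 22.1 CPM in those of HNKO mice.

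For several called members the result depended on the scale, among them Ndufs4. Ndufs4 was called higher in hepatocytes than in endothelial cells (log2 fold change 0.73 ± 0.20, SE, edgeR), but in unscaled CPM its pooled ratio was 1.10 (95% counting interval 0.935 to 1.30), and it was higher in 3 of 6 mice. Against stellate cells its ratio was 1.36 (1.10 to 1.70), higher in 6 of 6 mice. Of the other members called in both comparisons, Ndufs1, Sdhc, Uqcrc2 and Atp5b had intervals reaching below 1 against endothelial cells (lower ends 0.995, 0.966, 0.933 and 0.879). Against stellate cells those of Ndufs1, Ndufs3, Uqcrc2, Atp5b and Cox7c did (0.937, 0.973, 0.892, 0.850 and 0.997). The remaining intervals of these members began at 1.00 or above. Between stellate and endothelial cells, 2 members could be tested, Ndufs4 (log2 fold change -0.05) and Sdha (-0.04), and 0 were called, where 19.6% of all genes were called higher and 21.4% lower. The total over members in CD45+ cells was 1717, 1402 and 1552 CPM in WT and 1334, 1386 and 1740 CPM in HNKO mice, in the range of hepatocytes. Of these, the WT3 value rested on 7 nuclei and 47 member UMIs. In HNKO Kupffer cells it was 1266, 781 and 1672 CPM and in HNKO cholangiocytes 1190, 1244 and 1469 CPM, with fewer than 10 such nuclei in each WT mouse. Complex I took 40.6% of member UMIs in CD45+ cells, 41.7% in Kupffer cells and 48.8% in cholangiocytes, and complex IV 11.2%, 19.0% and 9.10%, against 40.6% and 11.9% in hepatocytes. No test was made of these shares.

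A genotype difference in cells without Alb-Cre activity could be tested for Ndufs4 only, since no other member had enough counts. Its log2 fold change was 0.33 in endothelial cells, 0.36 in stellate cells and -0.36 in CD45+ cells, where WT3 was left out for having 7 nuclei, and it was called in 0 of these, as were 0% of the 2743, 2266 and 2703 genes tested. At an unadjusted p under 0.05 there were 104, 158 and 224 genes and 0 members. The complex totals, with no test, were higher in stellate cells of HNKO mice. Over all members they stood at 748, 768 and 779 CPM in WT and 1123, 900 and 1516 CPM in HNKO mice, without overlap. Complex III was at 74.2, 70.6 and 49.9 CPM in WT and 133, 89.0 and 199 CPM in HNKO mice, and complex V at 148, 168 and 155 CPM in WT and 218, 236 and 413 CPM in HNKO mice. Complex I did not overlap either, whereas complexes II and IV did. With each nucleus weighted equally, complex III overlapped as well, at 91.4, 88.4 and 35.2 CPM in WT and 128, 68.8 and 179 CPM in HNKO mice. These totals rested on 713 member UMIs in all, 43.5 to 205 per mouse. The share of spliced UMIs in stellate cells was above all WT values in HNKO1 and HNKO3 and overlapped through HNKO2, at 16.4, 18.1 and 17.1% in WT and 19.3, 17.5 and 21.1% in HNKO mice. Alb, a sign of hepatocyte RNA, was at 546, 1479 and 429 CPM in WT and 1213, 753 and 1136 CPM in HNKO stellate cells. Of the 5 hepatocyte markers, Ttr did not overlap there, at 49.4, 70.6 and 69.9 CPM in WT and 133, 130 and 162 CPM in HNKO mice. The means in WT and HNKO stellate cells were 818 and 1034 CPM for Alb, 809 and 1503 for Cps1, 71.0 and 141 for Apoa1 and 54.9 and 113 for Cyp2e1, with overlap for these 4. The means of all 5 markers were thus higher in HNKO stellate cells, but mouse by mouse they did not follow the totals, as Alb was highest in WT2. The part of splicing and of hepatocyte RNA in the result was not tested.

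In endothelial cells the total over members was 926, 908 and 1132 CPM in WT and 994, 1219 and 1273 CPM in HNKO mice, with overlap. Complex II alone did not overlap there, at 78.4, 110 and 102 CPM in WT and 120, 152 and 128 CPM in HNKO mice, from 7 to 38 UMIs per mouse. Whether the HNKO to WT change was unequal in hepatocytes and in endothelial cells was tested for 76 members and called for 0, where 0.0876% of all genes were called (edgeR). At an unadjusted p under 0.05 there were 6 members, 4 of them with 0 UMIs in the endothelial cells of all WT mice (Sdhd, Uqcrfs1, Ndufb2 and Uqcr11), and 649 of all 12554 genes.

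Within hepatocytes, the total of every complex was higher in the clusters named periportal, or HNKO 1, 2 or 3, than in those named central. The central cluster was Central 1 in WT mice and HNKO2, Central HNKO 1 in HNKO1 and Central HNKO 2 in HNKO3. In each mouse it was compared with the clusters named periportal (WT mice and HNKO2) or HNKO 1, 2 or 3 (the others). Clusters named Hepatocytes 1 to 4 were left out. Among them were Hepatocytes 4 in WT1 (196 nuclei), Hepatocytes 1 in WT2 (345) and HNKO2 (292), and Hepatocytes 3 in WT3 (293). These clusters were built on all genes, members included, so the values are a description. Over all members, the level in the central and the compared clusters was 1048 and 1466 CPM in WT1, 1210 and 1595 in WT2, and 1272 and 1742 in WT3. It was 902 and 1197 CPM in HNKO1, 1298 and 1582 in HNKO2, and 1595 and 1932 in HNKO3. The direction was the same in all 6 mice, at 1.21 to 1.40 times, but the comparisons were unlike. In HNKO1 and HNKO3 nearly all other hepatocyte nuclei were in the compared clusters. Over all mice, Cyp2e1 and Cyp2f2 were at 2464 and 7.94 CPM in Central 1 and at 112 and 262 in Periportal 1. They were at 348 and 98.7 CPM in HNKO 1 and 177 and 145 in HNKO 2. In HNKO 3 they were at 1034 and 42.7 CPM, near the 1143 and 46.5 of Hepatocytes 1, which was left out. By complex, the ratio was 1.36 to 2.10 for complex IV, 1.15 to 2.02 for complex II, 1.23 to 1.55 for complex V, 1.14 to 1.37 for complex I and 1.11 to 1.32 for complex III, above 1 in 6 of 6 mice each. The mitochondrially encoded subunits did not share this direction. Their ratio was 0.557 to 1.65, above 1 in HNKO1 and HNKO3 and below it in the other 4 mice. Among clusters left out, Hepatocytes 4 was at 1302 CPM over all members in WT1 and Hepatocytes 3 at 1311 in WT3. Hepatocytes 1 was at 1249 in WT2 and 1324 in HNKO2. Each of these lay between the central and periportal values of its mouse. Hepatocytes 2, also left out, lay above the compared clusters, at 1777 CPM in WT1, 1994 in WT2 and 1992 in WT3. It was at 2204 in HNKO1 and 2225 in HNKO2. Over all mice Hepatocytes 2 held 14283 CPM of mitochondrially encoded subunits and 33.7% spliced UMIs. In WT2, Hepatocytes 1 was below Central 1 for complexes I (503 and 545), III (151 and 172) and V (312 and 320). For complexes II (125 and 87.7) and IV (158 and 84.6) it was above.

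Of 66 members with at least 50 UMIs in the mice with periportal clusters, 57 were higher in those clusters (86.4%; 60.4% of all genes were), with a median ratio of 1.40 against 1.10. Higher in the compared clusters than in the central cluster in all 6 mice were 12 members (18.2%; 15.2% of all genes): Ndufa8, Ndufv2, Sdha, Sdhc, Cox6b1, Cox6c, Cox7b, Cox7c, Cox8a, Atp5c1, Atp5j2 and Atp5pb. This share was near that of all genes. Of these 12, 5 encode small complex IV subunits and 3 complex V subunits. Cox7c was at 14.1 CPM in central and 33.6 in periportal nuclei, Cox7b at 9.89 and 25.2, and Cox6b1 at 4.50 and 17.3, the last from 5 central UMIs. Sdha, a much higher member, was at 60.3 and 88.6 CPM. Other members differed: Ndufs4 was at 171 and 187 CPM, Sdhb at 40.5 and 40.1 CPM, and Uqcrq was lower in periportal nuclei, at 33.3 and 24.2 CPM. Ndufv1, the subunit that binds NADH and flavin, was at 13.5 and 6.22 CPM, the former from 15 UMIs, and higher in the compared clusters in 1 of 6 mice.

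**Figure D3:**
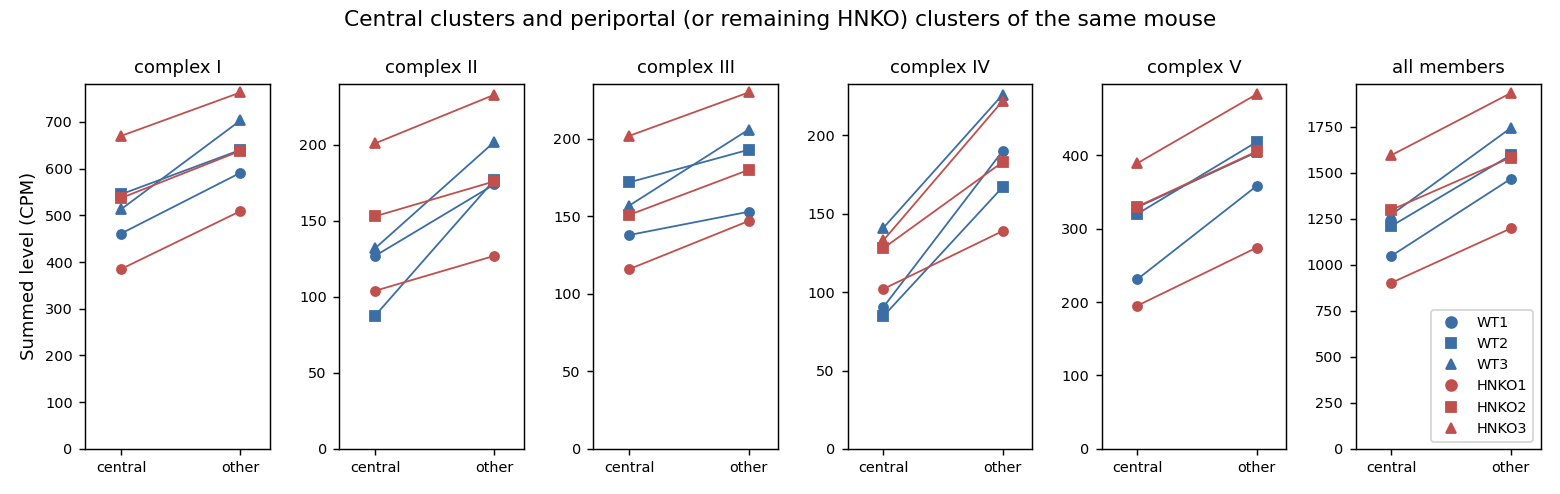
Summed level of the nuclear subunits of each complex and of all members in central and other hepatocyte clusters of each mouse (CPM, lines join the values of 1 mouse). Every line for the 5 complexes rises from the central to the compared clusters, by 1.11 to 2.10 times.

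Nuclei with a high share of mitochondrially encoded UMIs also gave a higher share of their UMIs to the nuclear subunits of complexes I, III, IV and V, in 6 of 6 mice each. The total of complex II was higher in 3 of 6 mice. In each mouse, the top 10% of hepatocyte nuclei with the highest share of UMIs from the 13 mitochondrially encoded subunits (56 to 85 nuclei, 0.997 to 1.96% of their UMIs) was set against the rest (0.115 to 0.166%). Over all members, the level in the top 10% and in the rest was 1761 and 1376 CPM in WT1, 1857 and 1375 in WT2, and 1840 and 1504 in WT3. It was 1667 and 1149 CPM in HNKO1, 2099 and 1427 in HNKO2, and 2433 and 1864 in HNKO3. The top 10% was higher in every mouse for this total. Of 78 members with at least 50 UMIs, 67 were higher in the pooled top 10% (85.9%; 48.6% of all genes were), with a median ratio of 1.58 against 0.992, and 17 were higher in all 6 mice (21.8%; 3.47% of all genes). The largest share was in complex IV, with 11 of 11 members and a median ratio of 1.79, and the smallest median was in complex II, at 1.18 with 3 of 4. Uqcr11, the smallest complex III subunit, was at 37.9 CPM in the top 10% and 11.4 in the rest, Cox8a at 37.9 and 14.0, Cox7c at 71.6 and 27.6, and Cox5b at 16.5 and 6.57. Some members were lower in the top 10%, among them Ndufs4 at 157 and 174 CPM, Sdha at 68.3 and 73.5 CPM and Ndufv2, a core subunit of complex I, at 21.4 and 28.6 CPM and higher in 0 of 6 mice. The top 10% also had more spliced UMIs, 25.6 to 35.5% against 18.9 to 22.0%, and fewer UMIs per nucleus, with medians of 2563 to 4334 against 3708 to 6002, and the part of cytoplasmic RNA carried with the nuclei was not tested.

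**Figure D4:**
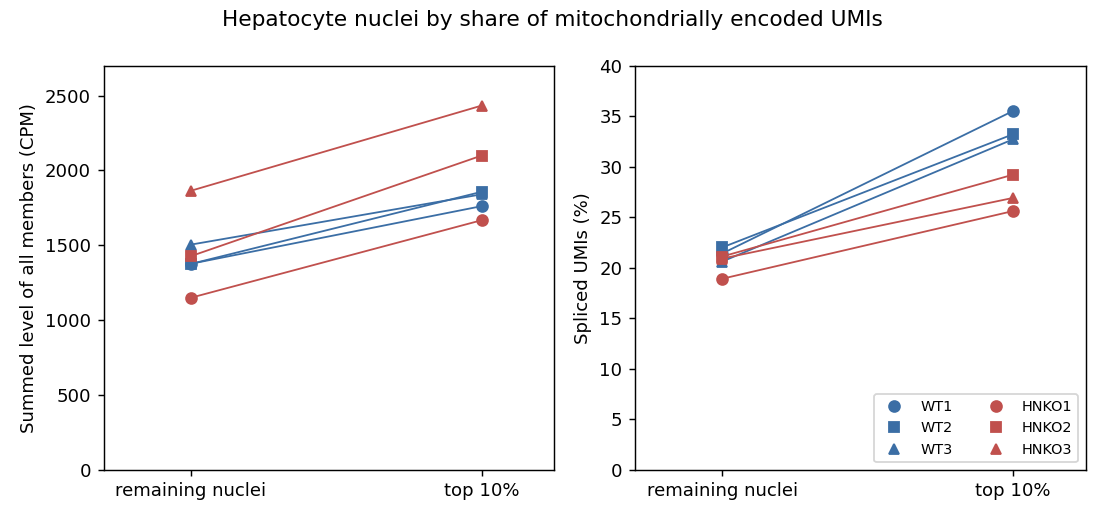
Summed level of all members (CPM, left) and share of spliced UMIs (%, right) in the remaining nuclei and in the top 10% of hepatocyte nuclei with the highest mitochondrially encoded share, with lines joining the values of 1 mouse. Both are higher in the top 10% in 6 of 6 mice, for example from 1149 to 1667 CPM for the members in HNKO1.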

How the data were processed

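Single-nucleus libraries of 3 WT and 3 HNKO livers, pooled in 2 RNA libraries and told apart by hashtag antibodies, were analysed. Per the submitters' processing notes, reads were processed with Cell Ranger 5.0.1 and alevin on GRCm38, with the GENCODE M25 gene model. The deposited matrix holds estimated counts of UMIs per gene and nucleus, spliced and unspliced together, after the authors had kept nuclei with 1 hashtag and set upper limits on hashtag counts and features. The removal of nuclei with more than 1 hashtag by the authors was the only treatment of doublets, and no caller was run. A second deposited matrix holds SCTransform-corrected scores rounded by the authors, used only as an alternative for the complex totals, beside the mean over nuclei, TMM-scaled CPM and other assignments of single members. The authors' names of cell types were used as deposited.

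For each mouse, the estimated counts of all nuclei of one type were added up, and the sums were rounded for the tests. The replicate was the mouse (n = 3 per genotype), and sums with fewer than 10 nuclei were left out of tests. Genes were filtered with filterByExpr, scaled with TMM and tested two-sided with edgeR's quasi-likelihood test (edgeR 4.0.16, R 4.3.3), with Benjamini-Hochberg adjustment over all genes and a threshold of 0.05. Cell types were compared with the mouse as a block. The script was tested on simulated data. DESeq2 1.42.0, RLE size factors, no filter, no mouse block and leaving out each mouse were the alternatives. Counting intervals (95%) and floors (3 UMIs) cover counting error only.

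Named members were those past the threshold (at most the 6 largest changes in each direction), in the genotype comparison the 2 smallest unadjusted p and the highest level of each complex, Sdha to Sdhd, tissue isoforms with their partners, Atpif1 and members whose pseudogene rows hold counts. Members named under zonation, the mitochondrially encoded share, the interaction and level per kilobase were chosen after their values were seen. The members and lists were chosen with earlier results of these data known. Of the members, 83 had a position by symbol in the annotation used and 24 of these overlapped a coding gene. Estimated counts are not whole where alevin split a UMI between genes, which held for 10.1% of all values (tolerance 0.001), 63.5% for Ndufa13, 45.6% for Ndufb8 and 29.3% for Cox7c, so these are uncertain.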

Additional observations from a re-analysis of the deposited data

How the results depend on the processing

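No paired analysis was possible because the numbers in the labels mark the 2 pools, which are not recorded per nucleus, and mice carry no shared number across genotypes. No tested member was called for genotype in hepatocytes, endothelial, stellate or CD45+ cells under any alternative run. Kupffer cells and cholangiocytes were not tested. Members called higher in hepatocytes than in endothelial cells fell from 26 to 11 with DESeq2 and were 19 to 22 on leaving out 1 mouse, and against stellate cells they fell from 21 to 9 with DESeq2 and to 11 with no mouse block, and were 16 to 22 on leaving out 1 mouse. Ndufb9 lost its call against endothelial cells with DESeq2 and without each of WT2, WT3, HNKO1, HNKO2 and HNKO3, and Atp5o lost its call against stellate cells with DESeq2. On TMM-scaled sums, an alternative chosen after seeing the data, the total over members was 1.89 times as high in hepatocytes as in endothelial cells (1.42 unscaled) and 2.29 times as high as in stellate cells (1.73 unscaled). RLE size factors moved the median log2 fold change of all genes against endothelial cells from 0.30 to 0.13. Members below 0 in the hepatocyte genotype comparison numbered 45 (without HNKO1) to 64 (without HNKO3). The stellate difference between genotypes in complex IV, 80.4% of the WT mean, ranged from 23.5 to 212.2% on leaving out 1 mouse, the highest without WT2, and was 29.4% as a mean over nuclei, and that in hepatocyte totals over all members from -7.9% (without HNKO3) to 17.4% (without HNKO1), against 5.6% with all mice and 12.9% on SCTransform-corrected values. With the filter dropped, the log2 fold change of Uqcrc2 went from -0.02 to 0.00. On leaving out 1 mouse, signs turned for Atp5c1 (-0.22 to 0.12), Cox6b1 (-0.27 to 0.07), Cox8a (-0.26 to 0.13), Ndufs4 (-0.33 to 0.00), Sdhb (-0.15 to 0.29), Sdhc (-0.06 to 0.18) and Uqcrc2 (-0.09 to 0.09). Over all genes, hepatocyte genotype calls were 0 with edgeR, 21 with DESeq2, 35 with no filter and 32 without HNKO2. The cause was not tested for any of these. Depth limits the cell types other than hepatocytes, in which 3 UMIs already stand for 3.17 CPM or more.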
